A study of Mus musculus with 14 samples.

Results

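Cytochrome P450 enzymes are heme proteins that insert an oxygen atom into lipids, steroids, vitamins, drugs, and toxins, using electrons delivered by cytochrome P450 reductase in the endoplasmic reticulum or by ferredoxin in mitochondria. Enzymes of families 1 to 3 mostly handle foreign compounds and steroids, those of family 4 hydroxylate the end of fatty acid chains, and several family 2 enzymes make epoxides from arachidonic acid. In the kidney most of them are found in the proximal tubule, and in mice many differ between males and females. The genes described here are those whose symbol is Cyp followed by a family number, a subfamily letter, and a gene number, leaving out the vitamin D enzymes Cyp24a1 and Cyp27b1. Of 91 such genes, 47 had an FPKM (fragments counted for a gene, scaled to the length of its transcript and to all fragments of the library) of at least 0.1 in at least 3 of the 14 mice and were kept, out of 14912 genes of the whole series that passed the same filter. They comprised 2 of 3 genes of family 1, 24 of 48 of family 2, 1 of 7 of family 3, 12 of 17 of family 4, and 8 of 16 of other families. On the GRCm38.p6 build, 11 of the 47 lie on chromosome 4, 7 on chromosome 17, 7 on chromosome 7, and 6 on chromosome 15.

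RNA of whole kidney tissue was sequenced from male C57BL/6J mice that were 8 weeks old at the start. The 4 WT diabetic mice and 4 Cfb-/- diabetic mice ate a high-fat diet (HFD) with 60% of calories from fat, and after 4 weeks received streptozotocin (STZ), a toxin of pancreatic beta cells, at 60 mg/kg on 5 days. The 3 WT control mice and 3 Cfb-/- control mice ate chow with 10% of calories from fat and received citrate buffer. The paper's methods place tissue collection 21 weeks after STZ, and the labels give 34 weeks without a starting point, give the control mice the treatment text of the diabetic mice, and call the deletion a knockdown. Diet and STZ were always given together, so their parts in any difference cannot be told apart, and the Cfb deletion was present in every cell type. Cfb encodes complement factor B of the alternative pathway.

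Cfb itself was at 56.7 to 131 FPKM in WT mice and at 1.13 to 2.22 FPKM in Cfb-/- mice. Sequencing depth is unknown from these files, and the lowest correlation between mice of a group was 0.9808 over log2 values of the tested genes. The proximal tubule markers Lrp2, Slc34a1, and Miox were present in each mouse, and the summed level of 10 such markers was 5803 to 8424 FPKM in control mice and 2249 to 3703 FPKM in diabetic mice. In bulk tissue, fewer cells of a type and less RNA per cell cannot be told apart. Over all tested genes, diabetic against control mice gave a median log2 fold change of 0.29 in WT and 0.22 in Cfb-/- mice, so the genes of average behaviour already sat above 0, and the changes below are to be read against these shifts.

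The sequence around the cysteine that holds the heme iron shows how closely the members are related, and it bears on how well their reads can be told apart. The heme-ligand signature of the family was found in the coding sequence of 42 of the 47 members (GENCODE, GRCm38), and the cysteine codon was TGC in 27 and TGT in 15. The 30 coding bases are printed 5′ to 3′ with that codon in capitals. Those of the Cyp4a members, which rose in WT diabetic mice, come first. Abundant members that fell and Cyp1b1, which rose in both genotypes, follow. In each gene printed except Cyp1b1 the 30 bases are split by an intron.
Cyp4a10 (chr4:115529502-115532543, plus strand, exons 11 and 12): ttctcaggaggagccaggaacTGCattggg
Cyp4a31 (chr4:115574950-115577948, plus strand, exons 11 and 12): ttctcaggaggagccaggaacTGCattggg
Cyp4a32 (chr4:115614880-115621446, plus strand, exons 11 and 12): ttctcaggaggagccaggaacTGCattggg
Cyp4a14 (chr4:115487299-115489805, minus strand, exons 11 and 12): ttctcaggaggatcaaggaacTGCattggg
Cyp4b1 (chr4:115625216-115625662, minus strand, exons 11 and 12): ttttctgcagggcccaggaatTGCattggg
Cyp2e1 (chr7:140773762-140774577, plus strand, exons 8 and 9): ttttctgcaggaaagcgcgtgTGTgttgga
Cyp2a4 (chr7:26313687-26314722, plus strand, exons 8 and 9): ttttccattggaaaacggtatTGTttcgga
Cyp2a5 (chr7:26841860-26842897, plus strand, exons 8 and 9): ttttccattggaaaacggtatTGTttcgga
Cyp2d12 (chr15:82559053-82559182, plus strand, exons 8 and 9): ttttcagcaggccgcagatcaTGCctgggg
Cyp2j13 (chr4:96045609-96056567, minus strand, exons 8 and 9): ttttcaatgggaaagcgagctTGCctcgga
Cyp1b1 (chr17:79710309-79710338, minus strand, exon 3): ttctcagtgggcaaacggaggTGCatcggt

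The bases were identical in Cyp4a10, Cyp4a31, and Cyp4a32 and in the pair Cyp2a4 and Cyp2a5. Cyp4a14 differed from Cyp4a10 at 2 of the 30 bases, and Cyp4b1, a neighbour on the same chromosome, differed from it at 6. Over whole transcripts, 10 of the 46 members with a coding transcript shared at least one stretch of 125 bases, the shorter read length used, with another member. These were Cyp2a4 and Cyp2a5, Cyp2c68 and Cyp2c69, Cyp2d9, Cyp2d10, and Cyp2d12, and Cyp4a10, Cyp4a31, and Cyp4a32. The share of such stretches was highest for Cyp4a32, at 8.68% with Cyp4a10 and 6.26% with Cyp4a31, and was 6.32% for Cyp2a4 with Cyp2a5. The values of these 10 genes are therefore uncertain, by an amount that these shares do not measure. How shared reads were assigned is not given in the sources used here. Cyp4a14, Cyp4b1, Cyp2e1, Cyp2j13, and Cyp1b1 shared no such stretch with another member.

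In the RefSeq promoter table (GRCm38.p6, 250 bases before to 50 after each start), 36 of the 47 members had an entry. A member was counted if any of its entries held the letters, whereas the share of all is over single entries. The counts and shares below are therefore not in like units. The letters TATAAA, read on both strands, were in 14 of the 36 and in 13.6% of all 32851 promoters of this length. GCGTG, the core of the site that the aryl hydrocarbon receptor (AhR) binds, was in 12 of the 36 and in 32.4% of all. DR1, here AGGNCA repeated after 1 further base, the kind of site that PPARα uses, was in 3 of the 36 and in 0.381% of all. The 3 are Cyp2d9, Cyp2d10, and Cyp2d40, related genes of the cluster on chromosome 15. The 100 bases before the start are printed for the most abundant member that fell, Cyp4b1, for Cyp2e1, with TATAAA in capitals at bases -31 to -26, and for Cyp1b1, a member that rose, with the reverse complement of GCGTG in capitals at bases -76 to -72.
Cyp4b1 (chr4:115647722-115647821, minus strand): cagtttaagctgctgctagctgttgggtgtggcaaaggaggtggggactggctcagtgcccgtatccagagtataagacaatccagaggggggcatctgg
Cyp2e1 (chr7:140763719-140763818, plus strand): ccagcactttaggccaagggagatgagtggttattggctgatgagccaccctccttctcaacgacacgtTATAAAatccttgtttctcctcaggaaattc
Cyp1b1 (chr17:79715062-79715161, minus strand): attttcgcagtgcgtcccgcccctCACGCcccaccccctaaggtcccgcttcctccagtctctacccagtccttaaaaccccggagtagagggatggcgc
These are matches of letters in the reference and say nothing of which factor was bound.

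A few genes held most of the P450 mRNA, and diabetic kidneys held less of it. The summed FPKM of the 47 members was 5170 ± 120 (SD, n = 3) in WT control mice and 4670 ± 243 (SD, n = 3) in Cfb-/- control mice, against 2280 ± 294 (SD, n = 4) in WT diabetic mice and 1900 ± 382 (SD, n = 4) in Cfb-/- diabetic mice. Each control mouse, at 4467 to 5293, lay above each diabetic mouse, at 1530 to 2610. As a share of all FPKM the members made up 1.04% to 1.33% in control mice and 0.454% to 0.750% in diabetic mice. Cyp4b1, which oxidises fatty acids and activates several aromatic toxins, gave 40.8% to 54.4% of the sum in control mice and 14.7% to 23.2% in diabetic mice. The next in mean level were Cyp2e1, Cyp2j5, Cyp2a4, and Cyp4a10. The 5 highest members of each mouse, not the same genes in every mouse, gave 80.9% to 87.8% of its sum in control mice. In diabetic mice they gave 63.6% to 69.4%. Cyp4a10 moved the other way, from 2.37% of the sum in WT control mice to 17.5% in WT diabetic mice as group means of the shares. Kap, an androgen-dependent transcript of the proximal tubule, alone gave 10.2% to 13.9% of all FPKM in control mice and 1.98% to 4.60% in diabetic mice. With Kap taken out of the total, the group means of the P450 share were 1.35%, 1.38%, 0.677%, and 0.587% in WT control, Cfb-/- control, WT diabetic, and Cfb-/- diabetic mice.

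**Figure D1:**
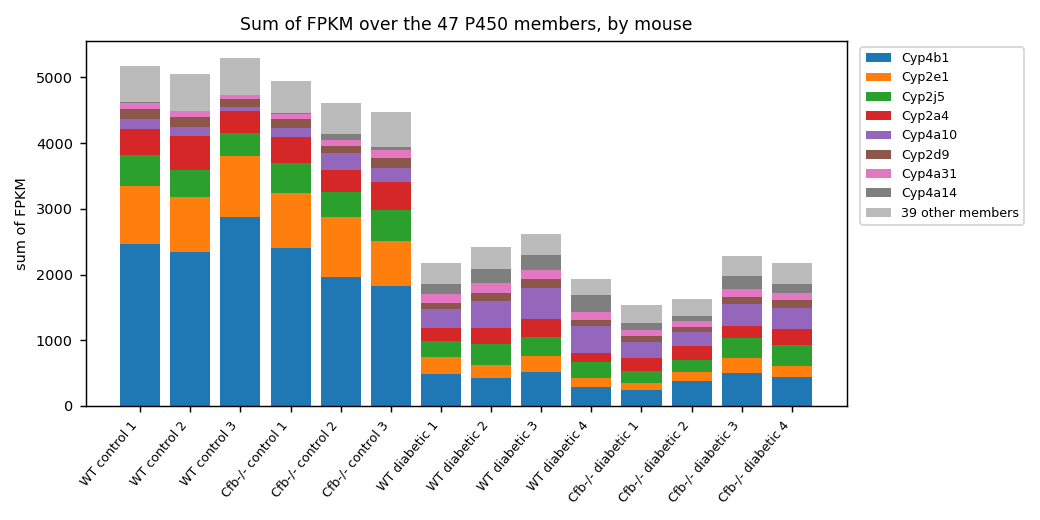
Stacked bars give the FPKM of the 8 most abundant P450 members and the sum of the 39 others (vertical axis, sum of FPKM) for each of the 14 mice (horizontal axis). The 6 control bars reach 4467 to 5293 and the 8 diabetic bars 1530 to 2610, with most of the gap in Cyp4b1 and Cyp2e1.

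Between diabetic and control mice the members split in both directions. In WT mice, 17 of 47 members rose and 11 fell in limma (p under 0.05 after Benjamini-Hochberg adjustment over all tested genes), which is 36.2% and 23.4% of the members. Of all tested genes 36.2% rose and 9.97% fell, so the share of members that rose was at the background and the share that fell was above it. In Cfb-/- mice 13 members rose and 8 fell, 27.7% and 17% of them, against 27.4% and 6.40% of all tested genes. Counts of the gene lists below are to be read against the same shares of all tested genes. The median log2 fold change of the members was 0.13 in WT and 0.28 in Cfb-/- mice. Counts differed with the level of the gene, among members as among all tested genes. Of the 17 members with a mean of at least 10 FPKM, 4 rose and 7 fell in WT mice, 23.5% and 41.2% of them, against 21.6% and 21.7% of all tested genes of that level. There 2 rose and 6 fell in Cfb-/- mice, 11.8% and 35.3%, against 16.5% and 13.2%. Of the 30 members below that level, 13 rose and 4 fell in WT mice, 43.3% and 13.3% of them, against 42.9% and 4.54% of all tested genes of that level. In Cfb-/- mice 11 rose and 2 fell, 36.7% and 6.67%, against 32.4% and 3.26%. When the mice were rescaled so that the median gene no longer shifted, fewer members counted as higher. With median-ratio scaling, 11 rose and 15 fell in WT mice and 8 rose and 12 fell in Cfb-/- mice. Of all 14912 tested genes, 3391 rose and 3347 fell in WT mice and 2761 rose and 2101 fell in Cfb-/- mice under that scaling.

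By family, both family 1 genes rose in WT mice and 1 of 2 in Cfb-/- mice. In family 2, 6 of 24 rose and 10 fell in WT mice, and 6 rose and 6 fell in Cfb-/- mice. In family 4, 7 of 12 rose and 1 fell in WT mice, and 4 rose and 2 fell in Cfb-/- mice. Among the 8 members of other families, 2 rose in WT mice and 1 in Cfb-/- mice, and none passed the test as lower. The only family 3 member kept, Cyp3a13, rose in Cfb-/- mice by 0.99 on the log2 scale (SE 0.32, adjusted p = 0.0271 from limma). That call was lost with quantile normalization, in the fit on only the groups compared, and without Cfb-/- diabetic mouse 1 or 2 or Cfb-/- control mouse 1 or 3. In WT mice its log2 fold change was 0.73 (SE 0.32, adjusted p = 0.0728 from limma). The WT and Cfb-/- comparisons have no mouse in common. In both, 10 members rose and 7 fell, 15 passed the test in neither, and no member rose in one and fell in the other. The same count was not made over all tested genes, of which 46.1% passed in WT and 33.8% in Cfb-/- mice. This overlap is therefore not shown to be particular to the members. A further 7 passed as higher and 4 as lower in WT mice alone, and 3 as higher and 1 as lower in Cfb-/- mice alone, but the interaction of genotype with diabetes passed for no member. The groups did not overlap for 14 higher and 11 lower members in WT mice, against 35.5% and 9.84% of all tested genes, and for 15 higher and 10 lower members in Cfb-/- mice, against 33.6% and 8.64%.

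**Figure D2:**
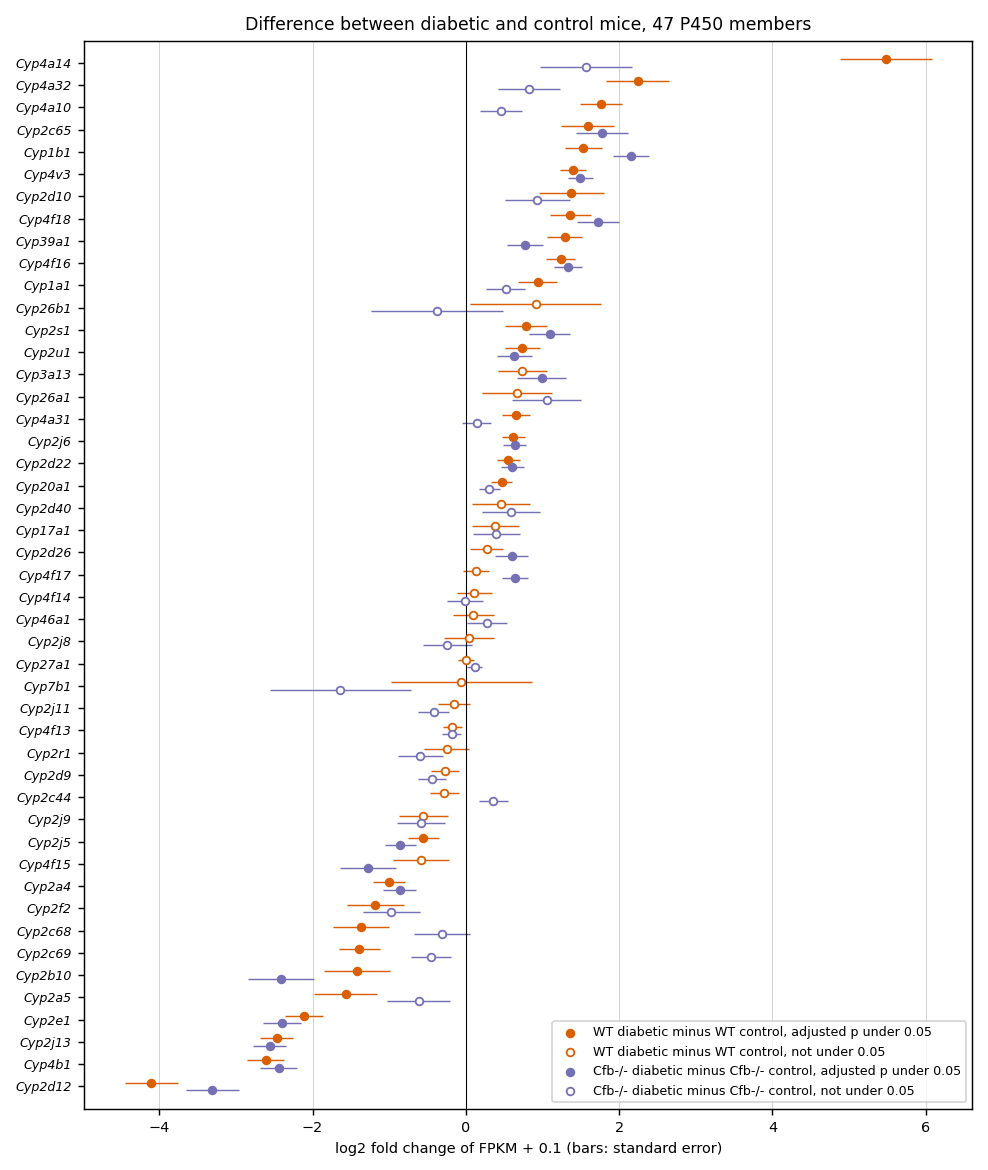
Points give the log2 fold change of FPKM + 0.1 between diabetic and control mice (horizontal axis, bars are standard errors) for each of the 47 members (vertical axis), with WT mice in orange and Cfb-/- mice in purple, filled where the adjusted p was under 0.05. Cyp2d12 is lowest in both genotypes, and the Cyp4a members are filled in WT mice and open in Cfb-/- mice.

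The deepest falls were among genes that were abundant in control kidneys. Cyp4b1 was at 2469, 2347, and 2877 FPKM in WT control mice and at 484, 425, 521, and 284 FPKM in WT diabetic mice. Among Cfb-/- mice it was at 2406, 1970, and 1824 FPKM in controls and at 246, 377, 500, and 440 FPKM in diabetic mice. The groups were far apart in both genotypes, and the log2 fold change was -2.61 (SE 0.24, adjusted p = 4.90e-06 from limma) in WT and -2.44 (SE 0.24, adjusted p = 8.40e-06 from limma) in Cfb-/- mice, which is 6.11-fold and 5.43-fold lower. Cyp2e1, which oxidises ethanol, acetone, and other small molecules, was at 871, 837, and 931 FPKM in WT control mice and at 258, 199, 241, and 138 FPKM in WT diabetic mice. In Cfb-/- mice it was at 833, 900, and 689 FPKM in controls and at 99.4, 137, 224, and 175 FPKM in diabetic mice. The fall was 4.32-fold in WT and 5.28-fold in Cfb-/- mice, with no overlap of groups.

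Cyp2d12, a family 2 enzyme of the cluster on chromosome 15, showed the largest fall among the members in both genotypes. It was at 99.3, 115, and 121 FPKM in WT control mice and at 9.45, 7.59, 4.22, and 5.50 FPKM in WT diabetic mice. Among Cfb-/- mice it went from 78.2, 112, and 87.0 FPKM to 7.28, 12.2, 16.7, and 4.70 FPKM. Even the highest diabetic mouse was far below the lowest control mouse, and the log2 fold change was -4.11 (SE 0.35, adjusted p = 3.03e-06 from limma) in WT and -3.31 (SE 0.35, adjusted p = 1.35e-05 from limma) in Cfb-/- mice. Its neighbour Cyp2d9, a steroid hydroxylase known for its higher level in males, shares stretches of sequence with it and did not pass the test, at 133 ± 17 FPKM (SD, n = 3) in WT control and 111 ± 22.1 FPKM (SD, n = 4) in WT diabetic mice. Cyp2j13 fell from 93.5 to 105 FPKM in WT control mice to 13.2 to 23.0 FPKM in WT diabetic mice, and from 74.5 to 105 FPKM to 10.5 to 19.6 FPKM in Cfb-/- mice. That is 5.52-fold and 5.90-fold lower, with log2 standard errors of 0.21. Its relative Cyp2j5, an arachidonic acid epoxygenase of mouse kidney, fell far less. It was at 474, 401, and 348 FPKM in WT control mice and at 253, 321, 291, and 242 FPKM in WT diabetic mice, a log2 fold change of -0.55 (SE 0.20, adjusted p = 0.0336 from limma), and at -0.85 (SE 0.20, adjusted p = 0.00412 from limma) in Cfb-/- mice. The call in WT mice was lost without WT control mouse 1 or 2 or WT diabetic mouse 1 or 4, at adjusted p values of 0.0755 to 0.108, and was also lost with quantile normalization. Of the other Cyp2j genes, Cyp2j6 rose in both genotypes and Cyp2j8, Cyp2j9, and Cyp2j11 did not pass the test in either.

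Of the near-identical steroid and coumarin hydroxylases Cyp2a4 and Cyp2a5, Cyp2a4 fell in both genotypes. It was at 400, 525, and 327 FPKM in WT control mice and at 184, 247, 268, and 142 FPKM in WT diabetic mice, and with the deletion at 324 to 425 FPKM in controls and 181 to 244 FPKM in diabetic mice. Its log2 fold change was -1.01 (SE 0.21) in WT and -0.87 (SE 0.21) in Cfb-/- mice. Cyp2a5 fell in WT mice, from 83.1, 114, and 166 FPKM to 55.6, 57.5, 50.8, and 14.5 FPKM, with a log2 fold change of -1.57 (SE 0.41, adjusted p = 0.00716 from limma). In Cfb-/- mice it was at 83.6, 49.9, and 44.0 FPKM in controls and at 39, 30.2, 31.9, and 50.4 FPKM in diabetic mice, and the groups overlapped (log2 fold change -0.61, SE 0.41, adjusted p = 0.27 from limma).

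Falls also occurred at low levels. Cyp2b10, a target of the constitutive androstane receptor, was at 0.885 to 1.03 FPKM in Cfb-/- control mice and at 0.251, 0.170, 0, and 0.0741 FPKM in Cfb-/- diabetic mice, a log2 fold change of -2.41 (SE 0.43, adjusted p = 0.000672 from limma). In WT mice it was at 0.941, 0.798, and 0.222 FPKM in controls and at 0.0724 to 0.209 FPKM in diabetic mice (log2 fold change -1.42, SE 0.43, adjusted p = 0.0163 from limma). That call was lost without WT control mouse 1, at an adjusted p of 0.0685, and without WT control mouse 2, at 0.0804. Cyp2c69 fell in WT mice, from 0.449 to 0.930 FPKM to 0.134 to 0.258 FPKM, as did its near copy Cyp2c68 and Cyp2f2, known for naphthalene oxidation in the airway. None of the 3 passed in Cfb-/- mice, where their log2 fold changes were -0.45, -0.31, and -0.97. The call of Cyp2f2 in WT mice was lost without WT control mouse 3. Cyp4f15 fell in Cfb-/- mice, from 0.372 to 0.639 FPKM to 0.0715 to 0.193 FPKM, with a log2 fold change of -1.28 (SE 0.36, adjusted p = 0.0136 from limma), and the call was lost without Cfb-/- control mouse 1, at an adjusted p of 0.0671. At these levels the added 0.1 makes the log2 fold change smaller than the ratio of FPKM values.

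Several of the abundant members that fell are known for higher levels in male than in female mouse kidney, and a list of 8 male-biased genes from outside the family fell beside them. In WT mice 6 of the 8 fell and 1 rose, for a median of -1.45 on the log2 scale, and in Cfb-/- mice 7 fell and 1 rose, for a median of -1.81. Kap was at 39707 to 67836 FPKM in control mice and at 6671 to 16015 FPKM in diabetic mice, and the organic anion transporter Slco1a1 at 58.9 to 97.5 FPKM and 0.827 to 9.14 FPKM. Of 5 female-biased genes, 3 rose and 1 fell in WT mice, and 2 rose and 1 fell in Cfb-/- mice. Their summed level was 488 to 665 FPKM in control mice and 166 to 349 FPKM in diabetic mice. Most of that was Acsm2, which fell by 1.19 in WT and 1.42 in Cfb-/- mice on the log2 scale. Of 10 proximal tubule markers, 6 fell in WT mice and 8 in Cfb-/- mice and none passed as higher, with medians of -0.65 and -0.91. The part of tubule content in the falls of the P450 members was not tested. Single markers of the list fell as far as some of the members, with log2 fold changes in WT mice of -2.99 for Slc5a2 and -2.12 for Miox beside -2.11 for Cyp2e1.

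**Figure D3:**
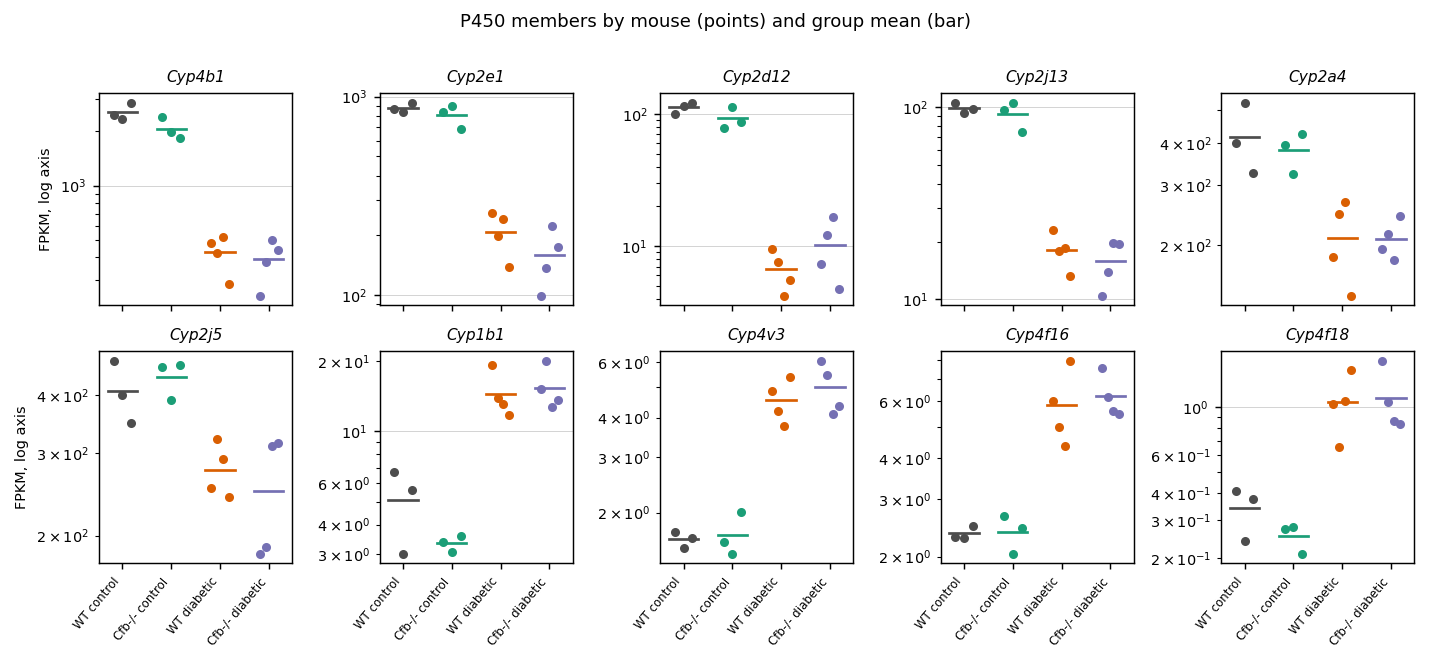
Each panel gives the FPKM of a member (vertical axis, log scale) in each mouse of the 4 groups (horizontal axis), with a bar at the group mean. In the panels of Cyp4b1, Cyp2e1, Cyp2d12, Cyp2j13, Cyp2a4, and Cyp2j5 the diabetic mice lie below the control mice, and in those of Cyp1b1, Cyp4v3, Cyp4f16, and Cyp4f18 above them.

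The members that rose in both genotypes were mostly of low or middle level. Cyp1b1, an AhR target that hydroxylates estrogens and is found mainly outside the tubule epithelium, was at 6.70, 3.01, and 5.63 FPKM in WT control mice and at 19.3, 13.9, 13.1, and 11.7 FPKM in WT diabetic mice. Among Cfb-/- mice it was at 3.36, 3.05, and 3.57 FPKM in controls and at 15.2, 20.0, 12.7, and 13.6 FPKM in diabetic mice. The groups did not overlap, and the log2 fold change was 1.53 (SE 0.24, adjusted p = 0.000208 from limma) in WT and 2.15 (SE 0.24, adjusted p = 1.98e-05 from limma) in Cfb-/- mice. Cyp4v3, a fatty acid hydroxylase, went from 1.55 to 1.73 FPKM to 3.76 to 5.37 FPKM in WT mice and from 1.48 to 2.01 FPKM to 4.12 to 6.06 FPKM in Cfb-/- mice, 2.63-fold and 2.82-fold higher. Cyp4f16 went from 2.04 to 2.65 FPKM over both control groups to 4.36 to 7.96 FPKM over both diabetic groups, and Cyp4f18, a leukotriene hydroxylase of myeloid cells, from 0.209 to 0.410 FPKM to 0.652 to 1.64 FPKM. Their log2 fold changes were 1.24 and 1.36 in WT and 1.34 and 1.73 in Cfb-/- mice.

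Cyp2c65 was listed at 0 in the 3 WT controls, reached 0 to 0.0236 FPKM in Cfb-/- controls, and was at 0.0734 to 0.593 FPKM in diabetic mice. It reached 0.1 FPKM in 7 mice, all of them diabetic, so the filter kept it only through the group where it was high. It passed the test in both genotypes and is counted among the members that rose, but that call gives no separate support. No fold is given for WT mice because their controls were listed at 0. Cyp39a1, an oxysterol hydroxylase, rose by a log2 fold change of 1.29 (SE 0.23) in WT and 0.77 (SE 0.23) in Cfb-/- mice. Cyp2s1 rose by 0.79 and 1.09, Cyp2j6 by 0.62 and 0.64, Cyp2d22 by 0.55 and 0.61, and Cyp2u1, a fatty acid hydroxylase, by 0.74 and 0.63 on the log2 scale. Of these, the calls of Cyp2d22 and Cyp2u1 were lost in both genotypes under both other scalings, those of Cyp2j6 and Cyp2s1 in WT mice under both, and that of Cyp39a1 in Cfb-/- mice under both. Cyp1b1, Cyp4v3, Cyp4f16, and Cyp4f18 kept their calls under both scalings, as did Cyp2c65, which was kept through diabetic mice alone. Cyp20a1, Cyp2d10, and Cyp1a1 passed as higher in WT mice, and Cyp2d26 and Cyp4f17 in Cfb-/- mice. The calls of Cyp20a1, Cyp2d26, and Cyp4f17 were lost under both other scalings and that of Cyp2d10 with quantile normalization. Those of Cyp20a1, Cyp2d10, Cyp2d26, and Cyp4f17 were also lost without single mice. So were those of Cyp2s1 and Cyp2u1 in WT mice and of Cyp2u1 and Cyp39a1 in Cfb-/- mice.

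Macrophage markers, and some endothelial markers, rose with these members. Of 7 macrophage markers, 7 rose in WT and 6 in Cfb-/- mice, and their summed level was 33.4 to 54.6 FPKM in control mice and 113 to 196 FPKM in diabetic mice. C1qa was at 8.92 to 19.6 FPKM in control mice and at 42.2 to 79.3 FPKM in diabetic mice. Of 6 endothelial markers, 3 rose in WT and 4 in Cfb-/- mice, with medians of 0.49 and 0.59 on the log2 scale. Their summed levels were 53.9 to 85.6 FPKM in control and 85.2 to 107 FPKM in diabetic mice. Of all tested genes 36.2% rose in WT and 27.4% in Cfb-/- mice. The part of macrophage or endothelial RNA in the rise of Cyp1b1 and Cyp4f18 was not tested.

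The Cyp4a members, which encode fatty acid omega-hydroxylases and are known targets of the fat-sensing receptor PPARα, rose in WT diabetic mice. The pattern leaves out Cyp4a12a, which fell in both genotypes (log2 fold changes -4.50 in WT and -4.12 in Cfb-/- mice), and Cyp4a12b, which passed in neither. Cyp4a14 was at 10.5, 4.97, and 1.76 FPKM in WT control mice and at 154, 211, 228, and 250 FPKM in WT diabetic mice. The lowest diabetic mouse was thus far above the highest control mouse, and the log2 fold change was 5.48 (SE 0.60, adjusted p = 1.66e-05 from limma), the largest of the 47 members. In Cfb-/- control mice Cyp4a14 was at 13.4, 96.3, and 47 FPKM, and in Cfb-/- diabetic mice at 94.8, 72.3, 194, and 137 FPKM. There the groups overlapped, with a log2 fold change of 1.56 (SE 0.60, adjusted p = 0.0583 from limma). Cyp4a10 was at 154, 141, and 69.9 FPKM in WT control mice and at 303, 405, 471, and 406 FPKM in WT diabetic mice (log2 fold change 1.77, SE 0.27, adjusted p = 0.000196 from limma). In Cfb-/- mice it was at 141, 260, and 213 FPKM in controls and at 248, 210, 340, and 309 FPKM in diabetic mice (log2 fold change 0.45, SE 0.27, adjusted p = 0.218 from limma).

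Cyp4a32 rose in WT mice, from 0.660 to 1.30 FPKM to 3.48 to 9.15 FPKM (log2 fold change 2.24, SE 0.41), and Cyp4a31 from 66.3 to 105 FPKM to 126 to 149 FPKM (log2 fold change 0.65, SE 0.19, adjusted p = 0.012 from limma). The call of Cyp4a31 was lost with median-ratio scaling, and without WT control mouse 3, at an adjusted p of 0.0699. Among Cfb-/- mice their log2 fold changes were 0.82 and 0.14 and did not pass. So 4 of 4 Cyp4a members rose in WT mice and 0 of 4 passed the test in Cfb-/- mice from limma, where 1 of 4 had an unadjusted p under 0.05. The difference between the genotypes, tested as an interaction, was -3.92 (SE 0.85) for Cyp4a14. The adjusted p from limma over all genes was 0.634, where the unadjusted p was 0.000377. It was -1.31 (SE 0.39) for Cyp4a10, with an unadjusted p of 0.0042, and -1.42 (SE 0.58) for Cyp4a32, with an unadjusted p of 0.0276, and their adjusted p values were 0.759 and 0.779. The difference therefore did not hold over all genes tested. Cyp4a14 was higher in each Cfb-/- control mouse than in each WT control mouse, by a log2 fold change of 3.08 (SE 0.64, unadjusted p = 0.000263, adjusted p = 0.19 from limma). The adjusted p was 0.0313 without Cfb-/- control mouse 1 and 0.0227 without WT control mouse 1, and it was 0.382 without WT control mouse 3, where Cyp4a14 was lowest. Over all fits that each left out 1 mouse, the adjusted p from limma reached 0.668.

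**Figure D4:**
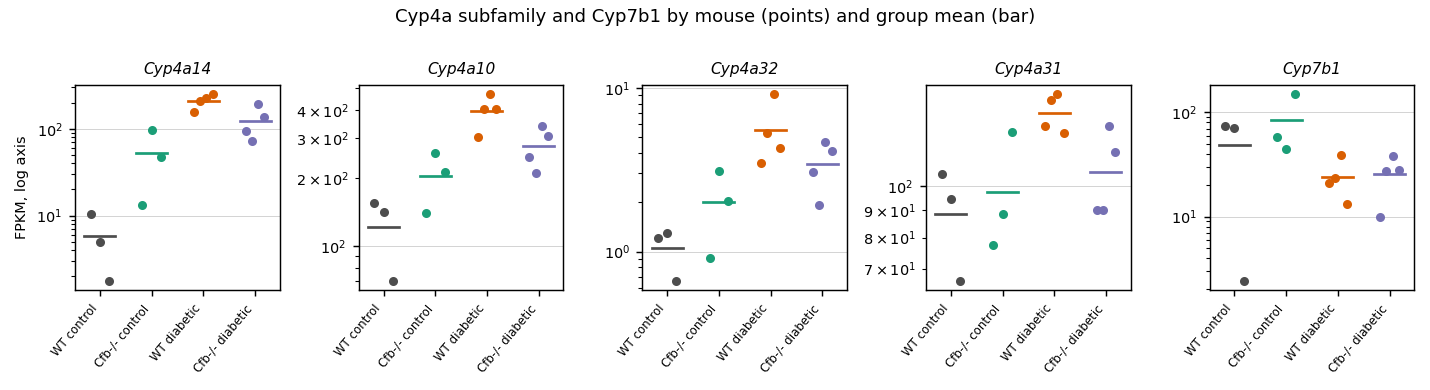
Each panel gives the FPKM (vertical axis, log scale) of a Cyp4a gene or Cyp7b1 in each mouse of the 4 groups (horizontal axis), with a bar at the group mean. For Cyp4a14 the WT control mice lie at 1.76 to 10.5 FPKM, below the other groups, and for Cyp7b1 a single WT control mouse lies at 2.41 FPKM.

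Other genes known as PPARα targets were read beside the Cyp4a genes. Of 12, 6 rose and none fell in WT mice, for a median of 0.75 on the log2 scale, and 5 rose and 1 fell in Cfb-/- mice, with a median of 0.63. All tested genes had 36.2% higher in WT and 27.4% higher in Cfb-/- mice. Pdk4, a kinase that inhibits pyruvate dehydrogenase, rose in both, by 2.46 and 1.12 on the log2 scale, as did Angptl4, Acot1, and Acot2. Ppara itself passed in neither genotype, and Ppard fell in both, by 1.23 and 1.46 on the log2 scale.

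Markers of tissue next to the kidney also differed between mice. The summed level of 8 urothelium markers was 0.617 to 1.32 FPKM in WT control mice, 1.41 to 23.1 FPKM in Cfb-/- control mice, 4.08 to 92.8 FPKM in WT diabetic mice, and 4.72 to 11.4 FPKM in Cfb-/- diabetic mice. All 8 passed as higher in WT diabetic mice and 0 of 8 passed from limma in Cfb-/- mice. The 7 listed adipocyte markers, 6 of which were tested and rose in WT mice while none of the 6 passed in Cfb-/- mice, summed to 7.46 to 31.7 FPKM in WT diabetic mice, to 9.95 FPKM in Cfb-/- control mouse 1, and to 0.147 to 0.615 FPKM in the other mice. Their part in the Cyp4a values was not tested.

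Members that did not pass in either genotype included genes of sterol and retinoid oxidation. Cyp27a1, the mitochondrial sterol hydroxylase, was at 15.3 to 19.7 FPKM over all 14 mice, with log2 fold changes of 0.0035 and 0.11 and a standard error of 0.10. The retinoic acid hydroxylases Cyp26a1 and Cyp26b1 were at 0.244 to 1.62 FPKM and 0.278 to 6.69 FPKM, with mice of a group up to many-fold apart. Cyp2r1, a vitamin D hydroxylase, was at 0.0781 to 0.409 FPKM, and Cyp17a1, a steroid hydroxylase of adrenal and gonad, at 0.0239 to 0.183 FPKM. Cyp2c44, an epoxygenase, was at 6.70 to 13.4 FPKM. Cyp4f13 and Cyp2j11 were at 6.49 to 9.88 FPKM and 35.0 to 74.4 FPKM. Cyp46a1, Cyp4f14, Cyp2d40, and Cyp2j8 also passed in neither, with levels of at most 1.19 FPKM.

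Cyp7b1, an oxysterol hydroxylase named here after its values were seen, was decided by 1 mouse in the WT comparison. It was at 73.7, 70.3, and 2.41 FPKM in WT control mice, at 57.9, 44.3, and 149 FPKM in Cfb-/- control mice, at 20.9, 23.6, 38.7, and 13.3 FPKM in WT diabetic mice, and at 10.0, 27.4, 38.0, and 28.0 FPKM in Cfb-/- diabetic mice. With all mice the log2 fold change of diabetic against control mice was -0.06 (SE 0.92) in WT and -1.64 (SE 0.92, adjusted p = 0.187 from limma) in Cfb-/- mice. In Cfb-/- mice the groups did not overlap. There the fit on only the groups compared gave an adjusted p of 0.0356 from limma, and fits that each left out 1 mouse gave up to 0.443. Without WT control mouse 3 the log2 fold change was -1.68 in WT mice (adjusted p = 0.0244 from limma). In Cfb-/- mice it was unchanged, and the adjusted p from limma was 0.0164. The same mouse was lowest of all 14 in Cyp4a14, Cyp4a10, and Cyp4a31, and highest in Cyp2a5, at 166 FPKM, and in Cyp4b1, at 2877 FPKM. Among 5 markers of the last straight segment of the proximal tubule it had 2.21 FPKM of Slc22a13, against 27.9 and 27.4 FPKM in the other WT control mice, and a summed level of 369 FPKM against 743 and 551 FPKM. Over all groups that list had 3 genes higher and 2 lower in WT mice, and 1 higher and 2 lower in Cfb-/- mice. Without WT control mouse 3, 16 members rose and 11 fell in WT mice.

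The deletion of Cfb was compared within diabetic mice and within control mice. In neither did a member pass an adjusted p under 0.05 from limma, and over all 14912 genes 0.00671% did in each, which is Cfb itself. An unadjusted p under 0.05 was found for 4 members in diabetic mice, 8.51% of them against 3% of all tested genes, for 9 members in control mice, 19.1% against 17.5%, and for 5 members in the interaction, 10.6% against 5.77%. By the criteria the study used (P under 0.05 without adjustment and a fold change over 2 or under 0.5), 0 members were higher and 1 lower in diabetic mice, against 0.0738% and 0.402% of all tested genes. In control mice 1 was higher and 1 lower, against 0.946% and 0.221%, and in the interaction 0 were positive and 3 negative, against 0.463% and 1.31%. The one in diabetic mice was Cyp4f15, with 0.427 ± 0.290 FPKM (SD, n = 4) in WT diabetic and 0.134 ± 0.0537 FPKM (SD, n = 4) in Cfb-/- diabetic mice, whose groups overlapped. The 2 in control mice were Cyp4a14 and Cyp2a5, the latter at 83.1 to 166 FPKM in WT control and 44.0 to 83.6 FPKM in Cfb-/- control mice. The 3 in the interaction were Cyp4a14, Cyp4a10, and Cyp4a32. With the same criteria, diabetic and control mice differed in 10 higher and 10 lower members in WT mice and in 8 higher and 6 lower in Cfb-/- mice, against 15.6% and 1.82%, and 13.3% and 1.66%, of all tested genes.

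No member was higher in each Cfb-/- diabetic mouse than in each WT diabetic mouse, and only Cyp2d22 was lower, against 1.86% and 0.885% of all tested genes. It was at 10.5, 8.88, 11.0, and 12.0 FPKM in WT diabetic mice and at 8.85, 8.05, 8.20, and 8.46 FPKM in Cfb-/- diabetic mice, with a log2 fold change of -0.32 (SE 0.14, unadjusted p = 0.0339). In control mice the groups did not overlap for 3 higher members, Cyp17a1, Cyp2u1, and Cyp4a14, and for 4 lower members, Cyp27a1, Cyp2c44, Cyp2c69, and Cyp2d26, against 6.67% and 7.12% of all tested genes. Of these, Cyp17a1 was mostly below the filter of 0.1 FPKM, at 0.0240 to 0.0261 FPKM in WT and 0.0465 to 0.105 FPKM in Cfb-/- control mice. Its unadjusted p from limma was 0.244. Cyp2u1 was at 0.753, 0.427, and 0.653 FPKM in WT control mice and at 0.926, 0.995, and 1.11 FPKM in Cfb-/- control mice. In diabetic mice it was at 1.08 ± 0.235 FPKM (SD, n = 4) in WT and 1.65 ± 0.355 FPKM (SD, n = 4) in Cfb-/- mice, where the log2 fold change between genotypes was 0.56 (SE 0.21, unadjusted p = 0.0172, adjusted p = 1 from limma). Cyp2c44 was at 11.7, 13.4, and 11.7 FPKM in WT control and at 11.0, 7.12, and 6.70 FPKM in Cfb-/- control mice (log2 fold change -0.60, unadjusted p = 0.00983, adjusted p = 0.247 from limma), and the genotypes overlapped in diabetic mice.

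The partners that feed electrons to P450 enzymes were followed as a list of 7 tested genes. In both genotypes 1 rose and 3 fell, with medians of -0.40 in WT and -0.20 in Cfb-/- mice. Por, the reductase that serves the P450 enzymes of the endoplasmic reticulum, was at 88.8 to 115 FPKM in control mice and at 55.1 to 79.1 FPKM in diabetic mice. It fell by 0.51 in WT and by 0.50 in Cfb-/- mice on the log2 scale. Cyb5a, cytochrome b5, fell by 1.14 and 0.82, and the mitochondrial ferredoxin Fdx1 by 0.40 and 0.57 on the log2 scale. Pgrmc1, a heme protein that binds P450 enzymes, rose by 0.30 and 0.29 on the log2 scale, which is close to the median of all genes.

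Of 14 tested receptors and factors that regulate P450 genes, 2 rose and 3 fell in WT mice, and 2 rose and 2 fell in Cfb-/- mice. Ahr rose by 1.25 and 0.88 on the log2 scale, from 0.685 to 1.85 FPKM over control mice to 2.11 to 2.86 FPKM in all but one diabetic mouse, at 1.83 FPKM. Nr1i3, the constitutive androstane receptor, rose by 0.86 and 0.98 on the log2 scale from 0.072 to 0.158 FPKM, while its target Cyp2b10 fell. Hnf4a, a factor of proximal tubule identity, fell by 0.75 and 0.79 on the log2 scale, from 157 to 198 FPKM to 81.0 to 123 FPKM. Of 4 tested AhR battery genes outside the family, 3 rose in WT and 2 in Cfb-/- mice and none fell, with Nqo1 at 28.7 to 55.4 FPKM in control and 66.2 to 106 FPKM in diabetic mice. Cyp1a1, the best known AhR target, was at 0.200 to 0.442 FPKM in WT control and 0.417 to 0.907 FPKM in WT diabetic mice (log2 fold change 0.94, adjusted p = 0.00853 from limma), a call that was lost with quantile normalization. Among Cfb-/- mice its log2 fold change was 0.52 (adjusted p = 0.129 from limma).

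Enzymes that share arachidonic acid and its epoxides with the Cyp2c, Cyp2j, and Cyp4a enzymes mostly rose. Of 11 tested, 7 rose and 2 fell in WT mice, and 8 rose and 1 fell in Cfb-/- mice. The share of all tested genes that rose was 36.2% in WT and 27.4% in Cfb-/- mice. Ephx1, microsomal epoxide hydrolase, was at 13.0 to 19.6 FPKM in control mice and at 108 to 147 FPKM in diabetic mice, a log2 fold change of 3.10 in WT and 2.87 in Cfb-/- mice. Ephx2, the soluble hydrolase that acts on fatty acid epoxides, fell by 0.71 and 0.59 on the log2 scale. Pla2g4a, which releases arachidonic acid, rose by 1.87 and 1.04, and Ptgs2, a prostaglandin synthase, by 2.09 and 1.39 on the log2 scale. In the retinoid list, 6 of 9 rose and 1 fell in WT mice, and 4 rose and 1 fell in Cfb-/- mice, beside the same shares of all tested genes. Aldh1a1, which makes retinoic acid, was at 5.09 to 7.61 FPKM in control and 43.4 to 69.4 FPKM in diabetic mice. The retinoic acid hydroxylases Cyp26a1 and Cyp26b1 passed in neither comparison. None of these lists had a gene that passed between genotypes or in the interaction from limma.

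P450 genes can also come from adrenal or liver tissue. The adrenal factor Nr5a1 was listed at 0 in 13 of the 14 mice, and the 8 adrenal markers summed to 13.5 to 17.6 FPKM in each mouse, most of it Fdx1 and Scarb1, which kidney cells also express. Of 6 tested, 3 rose and 1 fell in WT and 2 rose and 1 fell in Cfb-/- mice. The adrenal P450 genes Cyp11a1, Cyp11b1, and Cyp21a1 reached at most 0.0672, 0.0228, and 0.0575 FPKM. Of 6 tested hepatocyte markers, 2 rose in WT and 3 in Cfb-/- mice, and the 8 listed markers summed to 48.7 to 89.6 FPKM in control mice and 109 to 317 FPKM in diabetic mice. Most of that was Ttr, at 32.1 to 65.3 FPKM in control and 87.8 to 285 FPKM in diabetic mice, which rose by 1.34 and 1.67 on the log2 scale. Alb, which also rose in both, was at 2.28 to 5.36 FPKM over all mice, and the liver genes Cyp3a11 and Cyp8b1 reached at most 0.229 and 0.130 FPKM.

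The other 44 genes of the pattern were below the filter, 15 of them listed at 0 in each mouse and 29 above 0 in at least one. None of these was tested. The pattern also leaves out 3 P450 genes whose symbols are written otherwise. Cyp4a12a, the main arachidonic acid omega-hydroxylase of male mouse kidney, was at 127 to 142 FPKM in WT control and 79.7 to 128 FPKM in Cfb-/- control kidneys, and at 3.17 to 10.8 FPKM and 3.17 to 9.99 FPKM in WT and Cfb-/- diabetic mice. Its log2 fold changes were -4.50 and -4.12, opposite in direction to those of the Cyp4a members. It shares 30.8% of its stretches of 125 bases with Cyp4a12b, which was at 5.27 to 25.0 FPKM over all mice and passed in neither genotype. Cyp51, of cholesterol synthesis, was at 18.5 to 75.9 FPKM and fell in Cfb-/- mice by 0.70 on the log2 scale (adjusted p = 0.042 from limma).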

How the data were processed

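Kidney RNA of 14 mice, each a separate animal, was sequenced as stranded mRNA in paired reads of 125 or 150 bases. The authors deposited 1 file per mouse with a value per gene that is read here as FPKM, which was inferred from the values because the header names only the sample. Per the submitters' processing notes Trimmomatic, HISAT2, Cufflinks, HTSeq, DESeq, and GRCm38.p6 were used, with no versions given. A count model was not used because the files hold FPKM, depth is unknown, and no interval from counts is given.

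Values were taken as log2(FPKM + 0.1) for genes with at least 0.1 FPKM in at least 3 mice. All 14 mice entered 1 fit in limma 3.58.1 (R 4.3.3, with a mean-variance trend), and p-values were adjusted over 14912 genes. Fold changes on this scale understate those of low genes. The fit was tested on simulated data. Members and gene lists were chosen with earlier results of these data known. Values per mouse are given for the 10 members of highest mean, for those with an absolute log2 fold change of at least 1 that passed in a diabetes comparison (at most 12), and for those with an unadjusted p under 0.05 in a genotype comparison or the interaction (at most 6 each). Alternatives were another pseudocount, filter, scaling, or call rule, a fit on only the groups compared, a replicate block, and fits that each left out 1 mouse. Sequences came from GENCODE and RefSeq on GRCm38.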

Additional observations from a re-analysis of the deposited data

Results flagged for a closer look

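Cyp2a5 in WT diabetic mouse 4 lay apart from its group, at 14.5 FPKM against 50.8 to 57.5 FPKM in the other WT diabetic mice. The gap to the nearest mouse was 0.843 of the whole range of the group, above Dixon's 95% critical value for 4 samples. Over 42 such checks of a named member in a diabetic group, chance alone would place about 1 in 20 above the limit.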

How the results depend on the processing

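Scaling and the call rule moved the counts of members, and the cause was not tested. Members higher in diabetic WT mice went from 17 to 11 with median-ratio scaling, to 10 with quantile normalization, and to 10 by the criteria of an unadjusted p under 0.05 with a fold change over 2 or under 0.5. In Cfb-/- mice they went from 13 to 8, 7, and 8, and members lower from 8 to 14 with quantile normalization. By those criteria the Cfb deletion gave 1 member in diabetic mice, 2 in control mice, and 3 in the interaction, each against 0. Leaving out each mouse in turn gave 13 to 18 higher and 9 to 12 lower members in WT mice, 9 to 14 and 7 to 10 in Cfb-/- mice, 0 to 1 for the deletion in control mice, and 0 for the deletion in diabetic mice and for the interaction. None of the called members changed sign under these alternatives. Cyp7b1 in WT mice, which was not called, ran from -1.6776 without WT control mouse 3 to 0.7624 without WT control mouse 1, and was also above 0 without WT control mouse 2 (0.7283) and without WT diabetic mouse 4 (0.1892). Over 48 values of named members, 1042 alternatives gave 1001 on the same side of the threshold, 32 weaker, 5 stronger, and 4 of opposite sign. The fit on only the groups compared gives no interaction.

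With the replicate number as a block (replicate block), 16 members were higher and 9 lower in WT mice, 11 and 8 in Cfb-/- mice, and 0 passed for the deletion or the interaction. Mice of the same number did not deviate together (correlations of -0.388 to 0.243), so they share only a number. Under the block, Cyp2f2, Cyp2j5 (adjusted p = 0.0505 from limma), and Cyp2s1 were no longer called in WT mice, nor Cyp2d26 and Cyp2u1 in Cfb-/- mice. Cyp7b1 in WT mice was at 0.0188 in that fit.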
